A study of Saccharomyces cerevisiae with 24 samples.

Results

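Protein import genes of the mitochondrion were followed through the yeast metabolic cycle, in which crowded budding yeast cells short of glucose alternate, in step, between fast and slow respiration. Genes were taken by standard name: every TOM, TIM or PAM followed by a number, and 15 further names (SAM35, SAM37, SAM50, MDM10, MIA40, ERV1, MGE1, SSC1, MAS1, MAS2, IMP1, IMP2, OXA1, HSP60 and HSP10). This gave 42 of the 6562 genes measured, all of them matched in the R64 annotation and all above the minimum of 1 RPKM used for testing. The names alone chose 3 genes that do other work, and 39 are import genes. Those 3 are TOM1, a ubiquitin ligase, TIM11, which the annotation also lists as ATP21, a subunit of the ATP synthase, and PAM1, named for its effect on loss of a phosphatase. They are described apart.

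The libraries came from Saccharomyces cerevisiae strain CEN.PK in minimal medium, sampled at 0, 20, 60, 110, 140, 180, 200, 210, 220, 230, 240 and 260 min, with 1 RNA-seq library at each time and no replicates. The labels give no genotype or treatment beyond the strain, and they do not say whether the libraries came from 1 culture. The 12 MNase-seq samples of the same times were not analysed here. Build R64, named by the submitters, is the genome of another strain, S288C. Estimated depth was 4360000 to 5960000 reads a library, and the lowest value of any member, that of TIM12, rested on about 46.1 reads. None of the 42 genes overlaps another protein-coding gene of the annotation. Genes outside that annotation, and reads shared between paralogs, were not checked.

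Nearly all mitochondrial proteins are made in the cytosol and carried in. The TOM complex of the outer membrane is the common gate, and the SAM complex builds barrel-shaped proteins into that membrane. In the inner membrane, the TIM23 complex and its ATP-driven motor take in proteins with a presequence, the TIM22 complex inserts metabolite carriers, and OXA1 inserts proteins from the matrix side. Small TIM chaperones and the MIA40 and ERV1 relay serve the space between the membranes, and peptidases and the HSP60 chaperonin finish the imported chains.

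The highest library was 240, 260, 0 or 20 min for 36 of the 39 import genes, against 43.4% of all 6493 genes tested. It was 260 min for 20 genes, 240 min for 9, 0 min for 4 and 20 min for 3. With the libraries rescaled by median-ratio size factors, 33 of the 39 had their highest library among those times, and 2788 of all 6493 genes did. A smooth curve in time, a natural cubic spline with 4 degrees of freedom fitted to log2(RPKM + 1), was compared with a flat line by limma's moderated F-test. Genes with a Benjamini-Hochberg adjusted p below 0.05 over all genes tested are said to have varied. Of the 39, 22 varied, and over all genes tested 20.7% did. The share among import genes was 56.4%. Leaving out 220 min left 6 of the 39 with a call, 230 min 7, 240 min 7, 260 min 10 and 210 min 12, while 29 were called without 0 or without 20 min. Over all genes the share called fell in the same settings, to 4.36% when 220 min was left out, to 5.23% for 230 min, to 4.27% for 240 min, to 12.8% for 260 min and to 9.52% for 210 min. Dropping 0 min gave 51% and dropping 20 min 43.2%. With 3 degrees of freedom 9 of the 39 were called, and 2.23% of all genes. Each curve also changes its knots when a library is dropped, and the part of this in the counts was not tested.

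Among the 22, the highest library was 260 min for 16 genes, 240 min for 3, 0 min for 2 and 20 min for 1. The lowest libraries fell into 2 separate stretches, 140 to 200 min (7 genes at 140 min, 7 at 180 min, 1 at 200 min) and 220 to 230 min (6 genes and 1 gene). Between its highest and lowest library an import gene differed by a median of 3.06-fold, from 1.67-fold for TIM22 to 9.94-fold for MIA40. The fitted range, the highest minus the lowest fitted value on the log2(RPKM + 1) scale, had a median of 1.49 over the 39 and 1.10 over all genes tested.

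**Figure D1:**
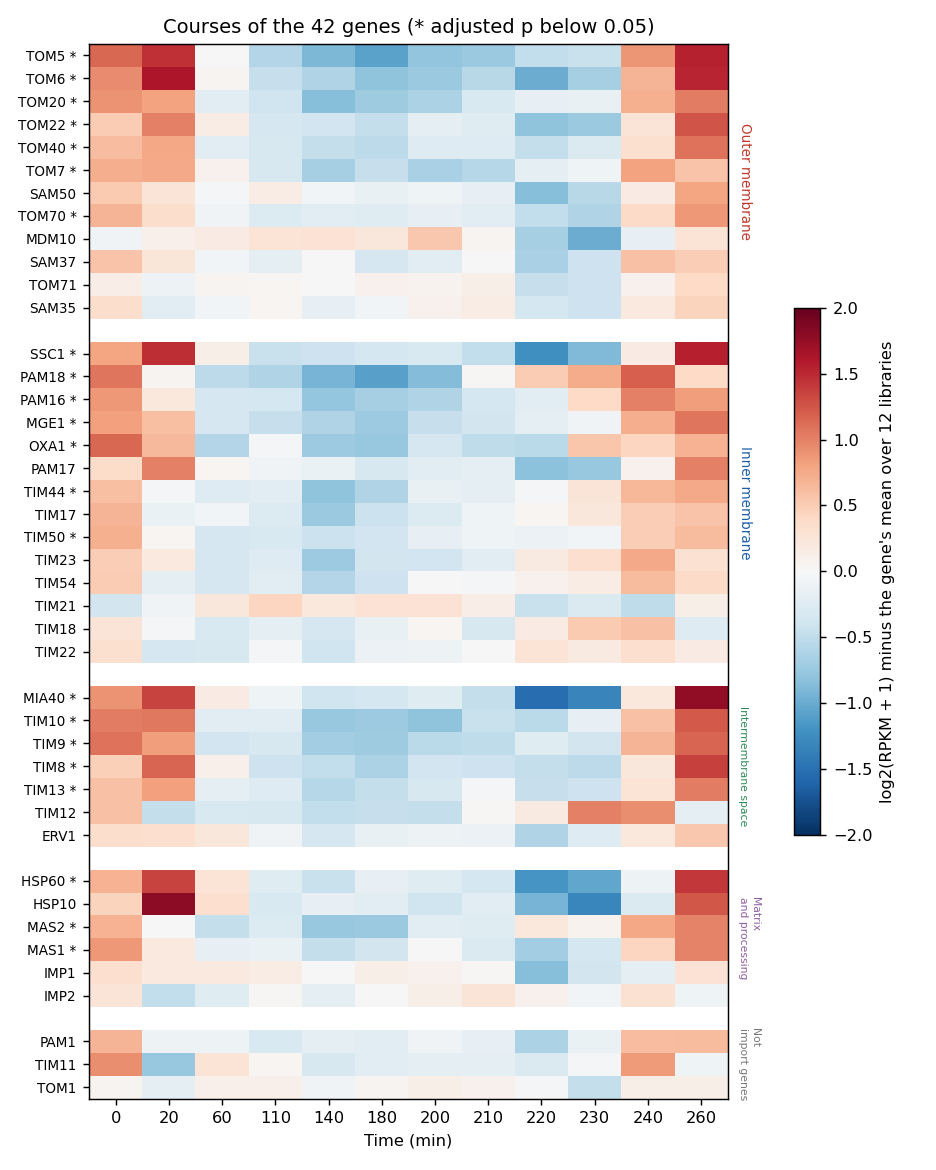
Level of each of the 42 genes (rows, grouped by place of work) in the 12 libraries (columns, time in min), as log2(RPKM + 1) minus the gene's own mean over the libraries. Red columns at 0, 20, 240 and 260 min mark the high libraries of most genes. The blue fields lie at 140 to 200 min for some genes, at 220 and 230 min for others, and in both for genes such as TOM40.

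Of the 8 TOM genes, 7 varied, all but TOM71. In what follows, a run of 12 values gives RPKM in the 12 libraries in order of time. TOM40 (YMR203W, chromosome XIII, 668492 to 669655), the channel itself, had 348, 389, 196, 182, 162, 158, 189.8, 189, 162, 185, 284 and 482 RPKM. It was high at 260, 20 and 0 min and stood at or below 195.6 RPKM in every library from 60 to 230 min (range 1.52 ± 0.31, adjusted p = 0.014). TOM20 (YGR082W, chromosome VII, 644044 to 644595), a receptor for presequences, had 327, 306, 149.5, 132, 96.2, 107, 112, 141, 156, 158, 288 and 356 RPKM. Its lowest library was 140 min, and at 220 and 230 min it was above its 140 min value (range 1.90 ± 0.29, adjusted p = 0.00465). TOM22 (YNL131W, chromosome XIV, 378767 to 379225), the central receptor, had 423, 599.7, 329, 236, 226, 212, 262, 249.6, 169, 176, 354 and 709 RPKM. Its lowest libraries were 220 and 230 min, and 260 min was the highest (range 1.81 ± 0.43, adjusted p = 0.0355).

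The small subunits TOM5 and TOM6, which hold the complex together, had the widest ranges among outer membrane genes. TOM5 (YPR133W-A, chromosome XVI, 797557 to 797709) had 559, 690.4, 251, 166, 134, 119, 144, 149, 178, 184, 463 and 731 RPKM. Its highest library, 260 min, was 6.16-fold above its lowest, 180 min (range 2.68 ± 0.38, adjusted p = 0.00415). TOM6 (YOR045W, chromosome XV, 413852 to 414037) had 634, 1009.9, 342, 239, 217, 189, 196, 225, 165, 209, 531 and 949.7 RPKM, with 20 and 260 min far above the other libraries and 220 min lowest (range 2.47 ± 0.46, adjusted p = 0.00746). TOM7, the third small subunit, lay between 81.7 RPKM (140 min) and 228 RPKM (240 min) (range 1.49 ± 0.30, adjusted p = 0.0212). TOM5, TOM6 and TOM20 kept their calls in all 19 alternative settings. TOM22 and TOM70 lost theirs without any of 200, 210, 220, 230, 240 or 260 min (limma adjusted p up to 0.162 for each), TOM40 without 220, 230, 240 or 260 min (up to 0.0788) and TOM7 without 200, 210, 220 or 230 min (up to 0.0747). With 3 degrees of freedom TOM22, TOM40 and TOM70 lost their calls as well (limma adjusted p of 0.157, 0.0637 and 0.193).

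TOM70 and TOM71 are paralogs, both receptors for hydrophobic precursors and carriers. TOM70 (YNL121C, chromosome XIV, 398684 to 400537) had 207, 165, 122, 106, 109.5, 108, 115, 111, 91.6, 84.9, 169 and 236 RPKM. TOM71 (YHR117W, chromosome VIII, 342349 to 344268) had 40.0, 33.7, 37.9, 37.2, 35.9, 38.5, 38.4, 39.7, 26.2, 26.9, 38.7 and 48.1 RPKM. TOM70 was above TOM71 in all 12 libraries, by 2.76-fold at 210 min to 5.07-fold at 0 min on the (RPKM + 1) scale, and it varied (range 1.30 ± 0.31, adjusted p = 0.0326) while TOM71 did not pass (range 0.60 ± 0.29, adjusted p = 0.466). The difference itself was tested by permuting the time order of TOM70 minus TOM71 on the log2 scale, with 100000 random orders and the part of its variance taken up by that spline (the share below). Of 14 such pairs of genes, adjusted together, 3 passed, and TOM70 and TOM71 were among them (share 0.908, permutation adjusted p = 0.023). That call was lost without 200, 210 or 260 min (permutation adjusted p of 0.0547 to 0.0704) and with 5 degrees of freedom (0.0562).

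None of SAM50, SAM35, SAM37 and MDM10 varied in limma's test, and 1 of these 4 had an unadjusted p below 0.05. SAM50 (YNL026W, chromosome XIV, 581920 to 583374), the barrel at the heart of the SAM complex, had 57.1, 47.5, 38.9, 44.2, 37.9, 35.6, 37.3, 35.3, 21.4, 26.7, 44.6 and 69.2 RPKM. Its libraries at 220 and 230 min were the lowest and that at 260 min the highest, and its adjusted p lay just over the threshold (range 1.31 ± 0.32, adjusted p = 0.0537). It passed with median-ratio scaling of the libraries (limma adjusted p = 0.0128), with 5 degrees of freedom (0.0422), with the time points numbered in order instead of in minutes (0.00982), with a minimum mean of 10 RPKM (0.0492) and without 0, 20, 60, 110 or 140 min (0.0261 to 0.0487). SAM37, which releases the finished barrel, lay between 24.4 RPKM (220 min) and 58.9 RPKM (240 min) (range 0.94 ± 0.36, adjusted p = 0.162), and it passed with median-ratio scaling (limma adjusted p = 0.0442). MDM10, a barrel shared between SAM and the tether to the endoplasmic reticulum, had 10.5 RPKM (230 min) and 32.0 RPKM (200 min) (range 0.98 ± 0.33, adjusted p = 0.225), and it passed with time point number (limma adjusted p = 0.028). SAM35, which recognises barrel precursors, stayed between 49.2 and 90.0 RPKM (range 0.60 ± 0.32, adjusted p = 0.546). In all 4 genes the lowest library was 220 or 230 min.

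**Figure D2:**
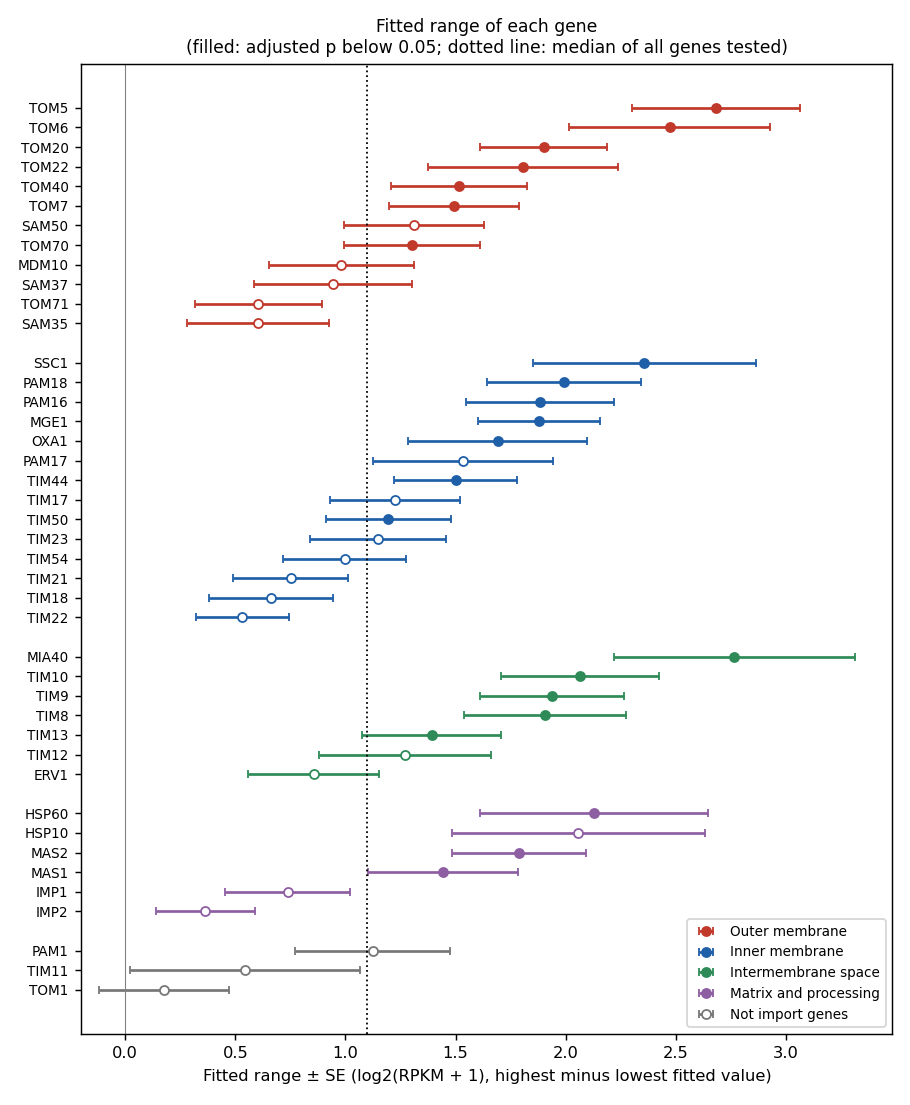
Fitted range of each of the 42 genes with its standard error, on the log2(RPKM + 1) scale, grouped by place of work, with genes past the threshold filled. MIA40, TOM5, TOM6 and SSC1 lie farthest right at 2.77, 2.68, 2.47 and 2.36, and the SAM and TIM22 complex genes lie near or left of the dotted median of all genes, 1.10, SAM50 at 1.31 being the highest of them.

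Of the 14 genes counted with the inner membrane 7 varied, and their ranges were spread unevenly over the complexes. All motor genes, SSC1 and MGE1 among them, were counted here. The inner membrane peptidase genes IMP1 and IMP2 were counted with the matrix and processing genes. Of the 4 genes of the TIM23 complex 1 varied, of the 6 motor genes 5, and of the 3 genes of the TIM22 complex none in limma's test (1 at an unadjusted p below 0.05). TIM23 (YNR017W, chromosome XIV, 662913 to 663581), the channel for presequence proteins, had 317, 259, 179, 187, 136, 174, 172, 193, 255, 283, 382 and 279 RPKM. It was lowest at 140 min, and its values at 220, 230 and 240 min went up to the highest of the 12 (range 1.15 ± 0.31, adjusted p = 0.0614). TIM17 (YJL143W, chromosome X, 147101 to 147577), its channel partner, had 385, 219, 231, 198, 143, 177, 199.7, 226, 246, 282, 340.1 and 358 RPKM, again lowest at 140 min and above that in every later library (range 1.23 ± 0.29, adjusted p = 0.0524). TIM50, the receptor that faces TOM22 across the space, lay between 86.1 RPKM (140 min) and 190.1 RPKM (0 min) (range 1.19 ± 0.28, adjusted p = 0.0442). TIM21, which links the complex to TOM and to the respiratory chain, ran differently, with 191 RPKM (110 min) and 99.3 RPKM (240 min) (range 0.75 ± 0.26, adjusted p = 0.197).

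The call of TIM50 was lost without 140, 180, 200, 210, 220, 230, 240 or 260 min (limma adjusted p of 0.0661 to 0.127) and with 3 degrees of freedom (0.111). TIM23 and TIM17 lay just over the threshold. Both passed with median-ratio scaling (limma adjusted p of 0.0414 and 0.0147), with 5 degrees of freedom (0.0251 and 0.0423) and with time point number (0.016 and 0.0155). TIM23 passed as well without any of 0, 20, 60, 110 or 260 min (limma adjusted p of 0.0214 to 0.0484), and TIM17 without 0, 20 or 60 min (0.0071 to 0.0495).

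The motor that pulls chains into the matrix is built on SSC1, the mitochondrial Hsp70. SSC1 (YJR045C, chromosome X, 519638 to 521602) had 1048, 1689.6, 658, 443, 457, 474, 489.8, 433, 258, 329, 682 and 1785 RPKM. It was highest at 260 and 20 min and lowest at 220 min (range 2.36 ± 0.51, adjusted p = 0.0186). PAM18 (YLR008C, chromosome XII, 165577 to 166083), the J-protein that stimulates SSC1, had 156, 77.0, 51.0, 48.1, 38.3, 34.4, 40.0, 75.3, 105, 124, 169.9 and 97.3 RPKM. Its values climbed from 210 min on, peaked at 240 min and were at 97.3 RPKM at 260 min, when SSC1 peaked (range 1.99 ± 0.35, adjusted p = 0.0179). PAM16, which holds PAM18 in check, lay between 72.8 RPKM (140 min) and 252 RPKM (240 min) (range 1.88 ± 0.34, adjusted p = 0.0162). TIM44 (YIL022W, chromosome IX, 311165 to 312460), which anchors SSC1 at the channel, had 171, 111, 94.3, 96.3, 64.3, 73.9, 102, 97.9, 110.2, 136, 179 and 192 RPKM, lowest at 140 min and highest at 260 min (range 1.50 ± 0.28, adjusted p = 0.023).

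MGE1, which exchanges the nucleotide of SSC1, lay between 111 RPKM (180 min) and 389 RPKM (260 min) (range 1.88 ± 0.28, adjusted p = 0.00549) and kept its call in all 19 alternative settings. PAM17, a further motor subunit, had its lowest library at 220 min, 88.4 RPKM, and its highest at 20 min, 318 RPKM, and its adjusted p was just over the threshold (range 1.53 ± 0.41, adjusted p = 0.052). It passed with median-ratio scaling (limma adjusted p = 0.0469), with 5 degrees of freedom (0.0254), with time point number (0.0268) and without 0, 20, 60, 110 or 140 min (0.00466 to 0.0492). SSC1 lost its call without 210, 220, 230, 240 or 260 min (limma adjusted p of 0.0548 to 0.115), PAM18 without 210, 220, 230 or 240 min (0.0596 to 0.112), PAM16 without 220, 230 or 240 min (0.0517 to 0.0592) and TIM44 without 140, 180, 210, 220, 230, 240 or 260 min (0.0516 to 0.0993). With 3 degrees of freedom SSC1, PAM18 and TIM44 lost theirs (limma adjusted p of 0.158, 0.116 and 0.0528).

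None of the 3 carrier translocase genes was called. TIM22 (YDL217C, chromosome IV, 67983 to 68606), its channel, had 71.7, 45.1, 45.6, 56.2, 43.2, 52.7, 52.8, 56.8, 69.5, 64.6, 72.1 and 64.4 RPKM (range 0.53 ± 0.21, adjusted p = 0.356). Of the 39 import genes it had the smallest fold between its highest and lowest library. TIM54, a large subunit of that complex, lay between 48.3 RPKM (140 min) and 113 RPKM (240 min) (range 1.00 ± 0.28, adjusted p = 0.0827), and TIM18 lay between 38.1 RPKM (140 min) and 72.8 RPKM (240 min) (range 0.66 ± 0.28, adjusted p = 0.374). All 3 genes were lowest at 140 min and highest at 240 min, but with median-ratio scaling the highest library was 220 min for TIM22, 260 min for TIM54 and 230 min for TIM18, and the lowest of TIM18 was 210 min. TIM54 passed with median-ratio scaling (limma adjusted p = 0.0239), with time point number (0.0271) and without 0 or 20 min (0.0235 to 0.0261), while TIM22 and TIM18 passed in none of the 19 settings. OXA1 (YER154W, chromosome V, 475020 to 476228), the insertase for proteins made or arriving in the matrix, had 123, 86.7, 36.2, 53.5, 32.7, 31.8, 43.3, 38.2, 37.3, 80.8, 73.9 and 89.0 RPKM. Its highest library was 0 min and its lowest 180 min (range 1.69 ± 0.41, adjusted p = 0.0423), and the call was lost without 140, 180, 200, 210, 220, 230, 240 or 260 min (limma adjusted p of 0.0581 to 0.123) and with 3 degrees of freedom (0.0881).

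The highest library was 260 min for 8 of 12 outer genes and 3 of 14 inner genes, 240 min for 2 outer and 6 inner genes, and 0 min for 0 outer and 3 inner genes. Of all 6493 genes tested, 1028 were highest at 260 min, 692 at 240 min and 707 at 0 min. With median-ratio scaling the highest library was 260 min for 8 outer and 6 inner genes, 240 min for 0 and 2, 0 min for 0 and 1, and 20 min for 3 and 2. With that scaling 2788 of all 6493 genes were highest at these times together, and single times were not counted over all genes. Outer genes averaged 0.59 and inner genes 0.25 above their own means at 20 min on the log2 scale, and 0.85 and 0.59 at 260 min. The outer complexes differed here. The 8 TOM genes averaged 0.83 and 1.03 at those times, and the 4 SAM genes, counting MDM10, averaged 0.10 and 0.50, below the inner genes. The lowest library was 220 or 230 min for 8 of 12 outer genes and 2 of 14 inner genes, against 37.3% of all genes tested. It was 110 to 200 min for 4 outer and 11 inner genes, against 10.6% of all genes. With median-ratio scaling these counts were 8 and 2, and 4 and 10, against 35.8% and 14.8% of all genes. The 8 outer genes lowest at 220 or 230 min were 4 of 8 TOM genes and 4 of 4 SAM genes, with either scaling. At 230 min against 20 min, 0 of 12 outer genes and 8 of 14 inner genes were higher, and 59.4% of all genes tested were. The median difference, 230 over 20 min, was -0.95 in outer genes, 0.16 in inner genes and 0.31 over all genes, on the log2(RPKM + 1) scale. At 220 min against 140 min, 3 outer and 11 inner genes were higher, beside 48.9% of all genes. Of the outer genes, 3 of 8 TOM genes (median difference -0.13) and 0 of 4 SAM genes (-0.72) were higher. The median over all genes was -0.02. With median-ratio scaling the counts higher at 230 min were 0 outer and 5 inner genes, and the inner median turned to -0.16, with 50.1% of all genes higher. The inner genes below their 20 min value at 230 min were SSC1, PAM17, MGE1, TIM21, OXA1 and TIM50, and SSC1 and PAM17 were so by more than 2-fold. The counts of genes that varied, 7 outer and 7 inner, were 3 and 1 without 220 min, 8 and 11 without 0 min, 4 and 2 with 3 degrees of freedom and 9 and 11 with median-ratio scaling. Over all genes the share called, 20.7%, was 4.36%, 51%, 2.23% and 26.7% in these settings. The differences 230 over 20 min and 220 over 140 min were chosen after their values were seen, and neither they nor the counts of lowest libraries have a test.

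**Figure D3:**
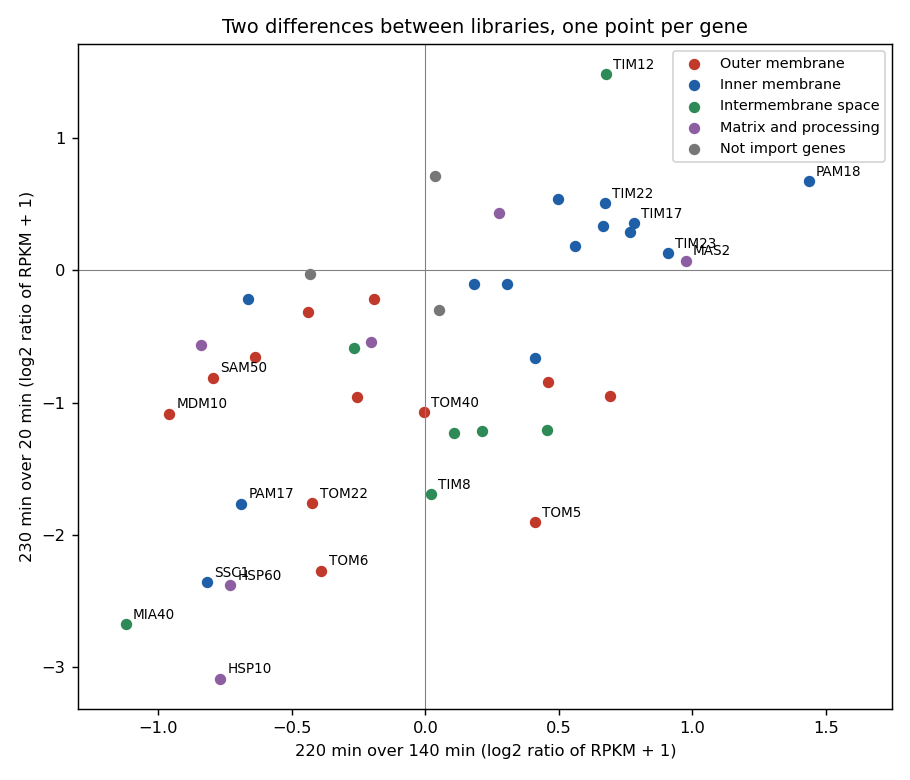
Each of the 42 genes by its difference between 220 and 140 min (horizontal axis) and between 230 and 20 min (vertical axis), both as log2 ratios of RPKM + 1, coloured by place of work. The 12 outer membrane genes all lie below 0 on the vertical axis, from -2.27 to -0.21. Above 0 lie 8 of 14 inner membrane genes, and 59.4% of all genes tested were higher at 230 than at 20 min. MIA40, HSP60, HSP10 and SSC1 lie together at the lower left.

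For each library the mean over outer genes minus the mean over inner genes was taken after centring each gene on its own mean. The gap was 0.34 at 20 min, 0.26 at 260 min and 0.23 at 60 min, and it was -0.57 at 230 min and -0.38 at 220 min, on the log2 scale. In the other libraries it lay between -0.09 and 0.19. At 20 and 260 min the mean of the 8 TOM genes was above the inner mean and that of the 4 SAM genes below it. At 220 and 230 min both were below the inner mean. Outer genes averaged -0.48 at 230 min (SD over 12 genes 0.25) and inner genes 0.09 (SD over 14 genes 0.47), so single genes of both classes overlapped. From lowest to highest the gap spanned 0.91, and 0.91 with median-ratio scaling, which moves all genes of a library alike. Without 230 min it spanned 0.72, with 220 min lowest. No p-value is given for these means, since the genes were chosen with earlier results known. Of the 3 pairs that set an outer against an inner gene, TOM40 and TIM23, TOM22 and TIM50, and SAM50 and TIM22, none passed (permutation adjusted p of 0.119, 0.218 and 0.0923).

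TOM40 minus TIM23 ran between -0.65 at 220 min and 0.79 at 260 min, and it passed without 0 or without 20 min (permutation adjusted p of 0.0227 to 0.0467). TOM22 minus TIM50 was lowest at 220 min, 0.66, and highest at 20 min, 2.31, and it passed without 0 min (permutation adjusted p = 0.00364). SAM50 minus TIM22 was lowest at 220 min, -1.65, and highest at 260 min, 0.10, and it passed with time point number (permutation adjusted p = 0.0271) and without 0 or without 20 min (0.0227 to 0.0467). In all 3 pairs the outer gene was lowest against its inner partner at 220 min. Of all 14 pairs tested, 12 passed without 0 min and 8 without 20 min, so passing there was not particular to these 3.

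**Figure D4:**
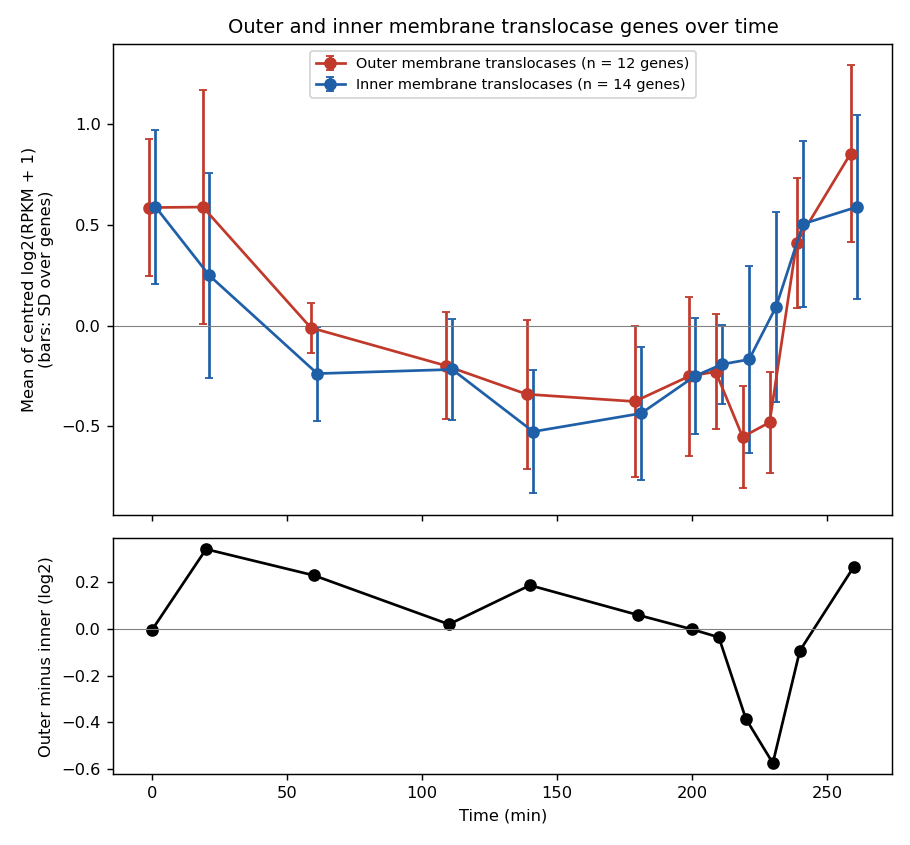
Upper panel, mean over the 12 outer and 14 inner membrane genes of centred log2(RPKM + 1) in each library, with bars for the SD over genes; lower panel, outer minus inner. Both means are above 0 at 0, 20, 240 and 260 min. The difference is 0.34 at 20 min and 0.26 at 260 min, and -0.38 at 220 min and -0.57 at 230 min.

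Between the membranes 5 of 7 genes varied. MIA40 (YKL195W, chromosome XI, 75821 to 77032), which inserts disulfide bonds into arriving proteins, had 463, 635, 279.8, 234, 188, 193, 209.6, 179, 85.8, 98.5, 289 and 853 RPKM. It had the widest range of all 42 genes, with 853 RPKM at 260 min, against 85.8 RPKM at 220 min (range 2.77 ± 0.55, adjusted p = 0.0156). ERV1, which re-oxidises MIA40, lay between 71.0 RPKM (220 min) and 157 RPKM (260 min) and was not called (range 0.86 ± 0.30, adjusted p = 0.119), though it passed with median-ratio scaling (limma adjusted p = 0.0434). MIA40 minus ERV1 passed that permutation test (share 0.817, permutation adjusted p = 0.0425), and the ratio on the (RPKM + 1) scale ran between 1.09 at 230 min and 5.39 at 260 min. That pair lost its call without 200, 210, 220, 230, 240 or 260 min (permutation adjusted p of 0.0677 to 0.191), with 3 degrees of freedom (0.216) and with 5 (0.0562), and MIA40 itself without 220, 230, 240 or 260 min (limma adjusted p of 0.0728 to 0.114) and with 3 degrees of freedom (0.181).

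The small TIM proteins escort hydrophobic chains across the space, TIM9 with TIM10 and TIM8 with TIM13. TIM10 (YHR005C-A, chromosome VIII, 115620 to 115901) had 966, 982, 409, 407, 279.6, 286, 271, 348, 324, 423, 709 and 1111 RPKM. TIM9 lay between 169 RPKM (180 min) and 625 RPKM (260 min). Both varied (range 2.07 ± 0.36, adjusted p = 0.00575 for TIM10; range 1.94 ± 0.33, adjusted p = 0.00661 for TIM9) and kept their calls in all 19 alternative settings. TIM10 was above TIM9 in all 12 libraries, with a median TIM9 to TIM10 ratio of 0.576, and the time course of their difference did not pass (permutation adjusted p = 0.556, SD of the difference over libraries 0.17). TIM8 lay between 90.9 RPKM (180 min) and 368 RPKM (260 min) (range 1.91 ± 0.37, adjusted p = 0.0134), and TIM13 between 91.0 RPKM (140 min) and 275 RPKM (260 min) (range 1.39 ± 0.32, adjusted p = 0.0263). Their median ratio was 1.01, and the difference did not pass (permutation adjusted p = 0.218), but did without 0 min (0.0499). TIM8 lost its call without 220, 240 or 260 min (limma adjusted p of 0.0685 to 0.0748) and TIM13 without 200, 220, 230, 240 or 260 min (0.0533 to 0.106). With 3 degrees of freedom both lost it (limma adjusted p of 0.0571 and 0.0931).

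TIM12, the small TIM bound to the TIM22 complex, was highest at 230 min, where the other small TIMs were highest at 260 min. TIM12 had 91.8 RPKM at 230 min, 86.5 at 240 min and 68.3 at 0 min, but 32.2 at 20 min and 39.9 at 260 min. Its lowest library was 140 min, with 31.8 RPKM, and it was not called (range 1.27 ± 0.39, adjusted p = 0.174). It was the only import gene at least 2-fold higher at 230 than at 20 min, where 29.1% of all genes tested were, and the only import gene at least 2-fold lower at 260 than at 240 min, where 25.1% were. With median-ratio scaling it was still the 1 import gene past the first of these, and 0 of 39 were past the second. The shares of all genes were then 23.3% and 19%. Its adjusted p in limma was 0.0208 with 5 degrees of freedom, 0.0467 with time point number and 0.00908 to 0.0274 without 0 or 20 min.

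In the matrix, the chaperonin had high levels and wide swings. HSP60 (YLR259C, chromosome XII, 663284 to 665002), its large ring protein, had 839, 1317, 624, 434, 379, 461, 437, 406, 228, 252, 483 and 1375 RPKM. It stood highest at 260 and 20 min and lowest at 220 and 230 min (range 2.13 ± 0.52, adjusted p = 0.0304). HSP10, its lid, was the most abundant of the 42 genes, with a mean of 1387 RPKM, and had 469.7 RPKM (230 min) and 3997 RPKM (20 min) (range 2.06 ± 0.57, adjusted p = 0.0824). It did not pass here, but did without 0 or 20 min (limma adjusted p of 0.00108 to 0.0174) and with 5 degrees of freedom (0.024). HSP10 was above HSP60 in all 12 libraries, with a median HSP60 to HSP10 ratio of 0.463, and their difference over time did not pass in any setting (permutation adjusted p = 0.796). HSP60 lost its call without 200, 210, 220, 230, 240 or 260 min (limma adjusted p of 0.0554 to 0.194) and with 3 degrees of freedom (0.208).

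MAS1 and MAS2 are the subunits of the peptidase that cuts off presequences. MAS1 (YLR163C, chromosome XII, 491866 to 493254) had 153, 95.6, 74.8, 76.5, 59.6, 65.0, 82.8, 68.4, 51.6, 65.4, 113 and 167 RPKM. MAS2 (YHR024C, chromosome VIII, 157744 to 159192) had 107, 65.3, 46.7, 54.4, 38.4, 39.0, 56.1, 55.2, 76.5, 68.8, 113 and 131 RPKM. Both varied and were highest at 260 min (range 1.44 ± 0.34, adjusted p = 0.0332 for MAS1; range 1.79 ± 0.31, adjusted p = 0.0168 for MAS2), but MAS1 was lowest at 220 min and MAS2 at 140 min. MAS1 minus MAS2 was positive in 9 of 12 libraries and lowest at 220 min, -0.56, and its course did not pass (permutation adjusted p = 0.1), while it did with time point number (0.0271) and without 0 min (0.0499). MAS1 lost its call without 210, 220, 230, 240 or 260 min (limma adjusted p of 0.0767 to 0.164) and with 3 degrees of freedom (0.166), and MAS2 without 220, 230, 240 or 260 min (0.0524 to 0.0747). The inner membrane peptidase genes did not pass in any setting. IMP1 lay between 40.9 RPKM (220 min) and 94.6 RPKM (0 min) (range 0.74 ± 0.28, adjusted p = 0.216), and IMP2 between 73.0 RPKM (20 min) and 128 RPKM (240 min) (range 0.36 ± 0.23, adjusted p = 0.72). IMP1 minus IMP2 did not pass (permutation adjusted p = 0.0939) but did without 0 min (0.0118).

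SSC1 has a paralog outside the set, ECM10, with which it may share reads. ECM10 was low, between 10.6 RPKM (230 min) and 27.3 RPKM (110 min), and was not called (range 1.03 ± 0.30, adjusted p = 0.137). SSC1 was 15.7-fold above it at 110 min and 92.7-fold at 20 min on the (RPKM + 1) scale, and the course of the difference passed (share 0.892, permutation adjusted p = 0.023). The call was lost without 200, 210, 230, 240 or 260 min (permutation adjusted p of 0.0551 to 0.0748) and with 5 degrees of freedom (0.0606). SSC1 minus MGE1, its exchange factor, did not pass (permutation adjusted p = 0.139) and did without 0 or without 20 min (0.00364 to 0.0467). The remaining pairs, TOM40 with SAM50 and TIM23 with TIM22, did not pass (permutation adjusted p of 0.0645 and 0.0923) but did without 0 or without 20 min (0.0115 to 0.0156 for TOM40 with SAM50, 0.0227 to 0.0467 for TIM23 with TIM22).

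**Figure D5:**
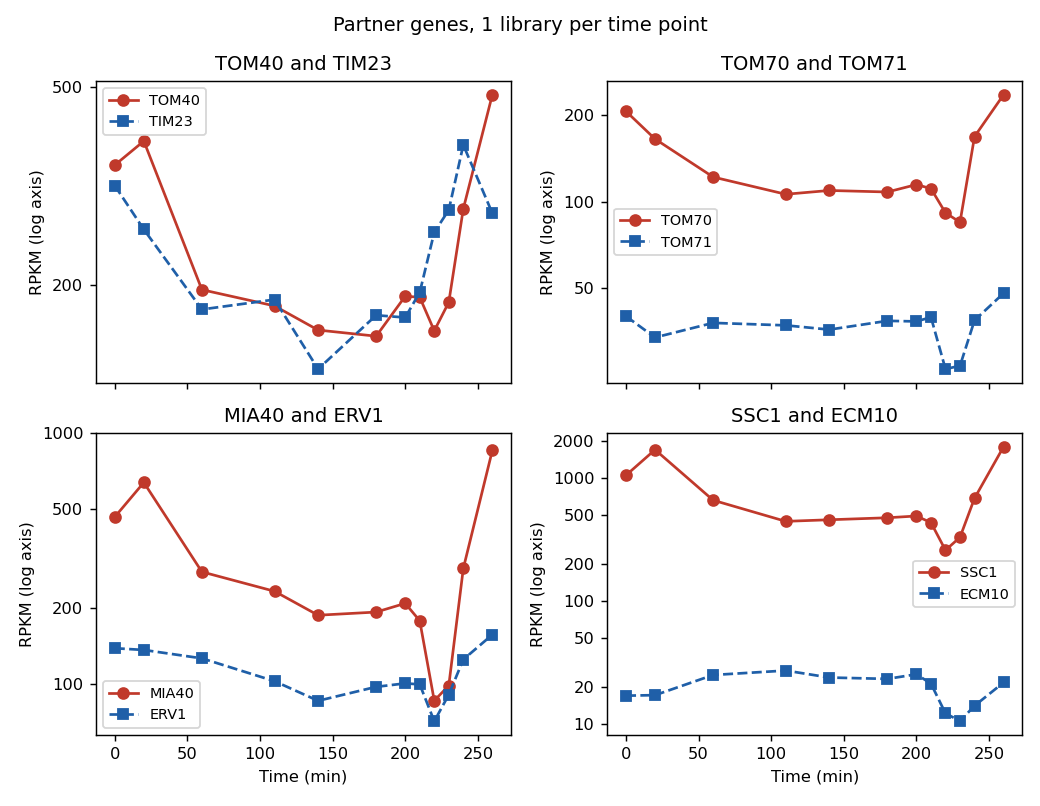
RPKM on a log axis in the 12 libraries for 4 pairs of genes. TOM40 and TIM23 cross repeatedly, with TIM23 above at 110, 180, 210, 220, 230 and 240 min and TOM40 above in the other libraries. TOM70, MIA40 and SSC1 swing more widely than TOM71, ERV1 and ECM10.

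Single libraries were also set against each other at the turns of the series, with no test. At 220 against 210 min, MIA40 was the only import gene lower by at least 2-fold, where 14.6% of all genes tested were, and 0 of 39 were higher by as much, where 6.56% were. With median-ratio scaling, which moves the median of all genes in this step to 0.06 from -0.17, 0 of 39 were lower by at least 2-fold. Of all 6493 genes, 661 were. At 260 against 240 min, 6 of 39 were higher by at least 2-fold, and 11.9% of all genes were. These were HSP10, HSP60, MIA40, SSC1, TIM8 and TOM22. With median-ratio scaling 10 were, TOM6, TOM40, PAM17 and TIM13 being added, and 17.8% of all genes; the median of the 39 was then 0.67 and not 0.35, and that of all genes 0.02 and not -0.29. At 260 against 220 min 23 of 39 were at least 2-fold higher, with 24% of all genes, and 0 of 39 were at least 2-fold lower, with 25.4% of all genes. The 23 were 8 of 12 outer, 5 of 14 inner, 6 of 7 intermembrane space and 4 of 6 matrix and processing genes. With median-ratio scaling 23 of 39 were again at least 2-fold higher at 260 than at 220 min, and 24.3% of all genes were.

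The 3 genes that share the names but not the work did not vary in limma's test, and 1 had an unadjusted p below 0.05. TOM1 (YDR457W, chromosome IV, 1369790 to 1379596) had 20.2, 16.9, 20.8, 20.7, 18.3, 20.1, 21.0, 20.5, 19.0, 13.6, 21.1 and 21.0 RPKM. It was the flattest of the 42 genes (range 0.18 ± 0.30, adjusted p = 0.966). TIM11 (YDR322C-A, chromosome IV, 1112003 to 1112293) had 1361, 425, 864, 739.6, 573, 620.3, 626, 626, 588, 698, 1289.9 and 678 RPKM. Its high libraries were 0 and 240 min, and 20 min was its lowest (range 0.54 ± 0.52, adjusted p = 0.881). Of the 13 other ATP synthase genes, 10 peaked in the 0 min library, 2 in that of 240 min and 1 in that of 20 min, and none varied (limma, 1 at an unadjusted p below 0.05). PAM1 (YDR251W, chromosome IV, 960614 to 963106) had 87.1, 50.2, 50.5, 43.4, 46.9, 46.0, 51.2, 48.0, 34.5, 49.2, 83.6 and 83.9 RPKM (range 1.12 ± 0.35, adjusted p = 0.121), and it passed with median-ratio scaling (limma adjusted p = 0.0199) and with time point number (0.0255).

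A further 25 genes of import, processing and folding lie outside the rule, and 9 of them varied, 36% beside 20.7% of all genes. Of these 9, 7 were highest at 260 min. Among them were MGR2, of the TIM23 complex (range 1.58 ± 0.37, adjusted p = 0.0317), MBA1, which brings ribosomes to the inner membrane (range 2.23 ± 0.37, adjusted p = 0.00436), CYM1, which degrades freed presequences (range 2.14 ± 0.38, adjusted p = 0.00706), and ICP55, which trims proteins after cleavage (range 1.61 ± 0.31, adjusted p = 0.0167). XDJ1, a J-protein that acts at TOM (range 1.95 ± 0.28, adjusted p = 0.00583), the Lon protease PIM1 (range 1.60 ± 0.33, adjusted p = 0.016) and the disaggregase HSP78 (range 2.49 ± 0.62, adjusted p = 0.0411) were the others. YDJ1 and MCX1 had 220 min as their highest library. YDJ1, the cytosolic J-protein that delivers chains to TOM, had 157 RPKM (260 min) and 788 RPKM (220 min) (range 2.19 ± 0.34, adjusted p = 0.00928). MCX1, a matrix unfoldase, had 70.1 RPKM (220 min) and 15.8 RPKM (20 min) (range 1.73 ± 0.35, adjusted p = 0.0166).

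Other lists give a scale for these ranges. The median fitted range was 1.40 for outer genes, 1.36 for inner genes, 1.91 between the membranes and 1.62 for matrix and processing genes. It was 2.35 for 54 genes of the mitochondrial ribosome, of which 53 varied and 50 were highest at 260 min. It was 0.79 for the 13 ATP synthase genes and 4.59 for 18 genes of the small-subunit processome, which builds cytosolic ribosomes and of which 18 varied and 18 were highest at 220 or 230 min. These differences between lists were not tested.

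Some import genes lie next to genes with other high libraries. PAM18 shares an upstream stretch of 453 bases with RLP24, a ribosome assembly gene on the other strand that varied (range 5.22 ± 0.84, adjusted p = 0.00436) and was highest at 220 min and lowest at 20 min, where PAM18 was highest at 240 min and lowest at 180 min. TOM20 shares 263 bases with SLX9, also of ribosome assembly, which was highest at 220 and lowest at 260 min (range 3.72 ± 0.52, adjusted p = 0.00421), while TOM20 was highest at 260 min. Of the 42 genes, 25 lie head to head with the nearest upstream gene in this way. The share over all genes was not counted, so this number describes the 42 genes only. These neighbours were chosen after their values were seen. No sequences of these genes or of their upstream stretches were read here.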

How the data were processed

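RNA was extracted with hot phenol and libraries were made with the NEBNext Ultra RNA kit, per the labels' protocols, a kit that does not mark strand. The submitters' processing notes name Bowtie2 and build R64. For the read counter, no name is given in the sources used here. Values were deposited by the authors as 1 number per gene and library, a signal whose header has the letters of RPKM transposed. Value times length in kb sums to 41500000 to 44800000 per library, so the values were taken as base coverage scaled to length and depth and divided by the read length of 50 bases to give RPKM. At the best-scoring depth, 333 of 1307 low values lay within 0.5 base of whole reads, against 15 at the median of other depths. This scaling rests on the values alone, and depths are estimates, so no counting interval is given. Testing had been planned on RPKM, with the deposited values scaled to it first if they turned out to be coverage.

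Of 6562 genes, 5891 matched the RefSeq table of R64 and 671 did not. Genes averaging at least 1 RPKM (6493) were fitted on log2(RPKM + 1) with limma 3.58.1 in R 4.3.3, by a natural spline of time with 4 degrees of freedom, which leaves 7 residual degrees of freedom. The median residual SD was 0.371. The p-values measure scatter about a curve and not the spread between cultures. Differences of 14 gene pairs were tested with 100000 permutations of time, adjusted by Benjamini-Hochberg. The code was tested on simulated data. A second deposited table, each gene divided by its maximum, was not used. Alternatives were 3 or 5 degrees of freedom, time point number, the deposited scale, other minimum levels, median-ratio scaling and each library left out. For differences between single libraries, the alternatives were chosen after seeing the data.

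Genes given with all 12 values are core subunits, the widest range of each class and the 3 genes without an import role. The members and lists were chosen with earlier results of these data known.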

Additional observations from a re-analysis of the deposited data

How the results depend on the processing

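No paired analysis was possible because each time has 1 library and the replicate numbers are only names. The number of import genes that varied, 22, was 9 with 3 degrees of freedom and 6 to 29 when a library was left out. Outer membrane genes numbered 4 with 3 degrees of freedom, and 3 to 8 with a library left out. Inner membrane genes numbered 2 with 3 degrees of freedom, 11 with time point number and 11 with median-ratio scaling, and 1 to 11 with a library left out. Over all genes 1343 varied, 145 with 3 degrees of freedom, 2589 with 5, 2657 with time point number, 1732 with median-ratio scaling and 277 to 3309 with a library left out. Of the gene pairs 3 passed, 0 with 5 degrees of freedom, 5 with time point number and 0 to 12 with a library left out. The span of the outer minus inner gap was 0.72 to 0.91 with a library left out. The cause of these changes was not tested. Calls of 6 import genes held in all 19 settings (MGE1, TIM10, TIM9, TOM20, TOM5 and TOM6), and 16 were lost in at least 1. The share of all genes that held in every setting was not counted, so the 6 have no background to be read against. With 1 library at each time, a single library and a time point cannot be told apart.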
